A study of Mus musculus with 9 samples.

Results

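A small set of autosomal CpGs was covered far more deeply than the rest of the genome in each of the 9 bisulfite libraries. These extreme-coverage CpGs were chosen by their calls: with both strands of a CpG added, at least 500 calls were required in every library. The rule kept 1143 of the 5800730 autosomal CpGs listed in all 9 libraries (0.0197%), and 18361710 autosomal CpGs were listed in at least 1 library. Coverage therefore chose the members, and every coverage value below is a description with no test. Methylation was not used by the rule.

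The libraries came from nucleus accumbens, a part of the ventral striatum in the reward circuit, of male C57BL/6J mice aged 8 weeks. The labels place 5 libraries in a Control group (numbers 2, 3, 4, 5 and 8) and 4 in a Susceptible group (numbers 2, 3, 6 and 7), the latter being the name used for mice that show social avoidance after defeat. Per the labels, defeats by an aggressive CD1 male took place on 10 days, and the same treatment text stands with every library, so how Control mice were handled is not given in the sources used here. Bulk tissue was sequenced after bisulfite conversion, which turns unmethylated cytosines into a base read as T; methylated and hydroxymethylated cytosines stay C. The methylation level is the share of calls read as C, and 1 call is 1 read covering 1 cytosine. Where nothing states that each library is a separate animal, p-values rest only on spread between these libraries, pooled in part over other features.

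A reference genome holds 1 or a few copies of sequences that the animal's genome repeats many times. Reads from those copies can then stack on the few placed copies. In the mouse the main sequences of this kind are the ribosomal DNA (rDNA) arrays, which encode the 18S, 5.8S and 28S ribosomal RNAs, the major and minor satellites at the centromeres, and tandem gene families. Ribosomal DNA arrays hold a mix of active, unmethylated copies and silent, methylated ones, whereas pericentromeric satellites are heavily methylated in somatic tissue. A level read at such a place is an average over copies as well as over cells, and the number of copies and the number of reads each copy yields cannot be told apart.

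The total of listed calls ran from 313475624 to 430312082 in Control libraries and from 432409939 to 570984634 in Susceptible libraries, so the Susceptible libraries were all deeper. Median calls per autosomal CpG listed in all 9 ranged from 27.0 to 47.0, and median calls per extreme-coverage CpG from 1742 to 3110. Counted alone, each library had between 1200 and 1696 autosomal CpGs with at least 500 calls. The shallowest library, Control 5, had the fewest calls at 846 of the 1143 members, so it set membership most often. In methylation, Control 3 read highest at most of the clusters of intermediate level described below. The outlier criterion given further below, which asks for a wide gap with so few libraries, did not flag it.

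Around the threshold the rule separated near-equal sites. The 3 members with the lowest minimum were chr5:58000671 in Pcdh7 with 500 calls, chr4:118547607 with 502 and chr12:78351140 in Gphn with 504. Just outside lay chr12:78351137 with 499 calls, chr17:38683392 with 498 and chr9:3000633 with 496. The Gphn pair lies 3 bp apart, and each of the other excluded sites lies in or beside a cluster of members.

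One stretch of the assembly shows a kind of sequence that passed the rule. It is the RefSeq promoter window, from 250 bases before to 50 after the gene's start, of Gm40237, an uncharacterised locus on chromosome 4. It is shown because its 5 members can be seen to sit in a tandem repeat. The window is chr4:118547156-118547455 on the plus strand (GRCm38.p6, sequence from RefSeq), with the CG of each member in capitals.
Gm40237: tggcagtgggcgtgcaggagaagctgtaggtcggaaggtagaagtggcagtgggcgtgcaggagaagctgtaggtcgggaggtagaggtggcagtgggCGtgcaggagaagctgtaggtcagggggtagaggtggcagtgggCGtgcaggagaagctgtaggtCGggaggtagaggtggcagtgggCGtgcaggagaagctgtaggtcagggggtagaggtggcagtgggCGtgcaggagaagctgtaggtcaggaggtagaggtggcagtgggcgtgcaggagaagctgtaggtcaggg
Shifted by 44 bases the window matched itself at 96.1% of positions, and shifted by 88 bases at 97.6%, against a median of 32.4% over the shifts tried. All 10 CG of the window were listed in all 9 libraries, and 5 passed the rule. Of those 5, 4 occupy the same place in successive repeat units, which is why they stand 44 bases apart. Their lowest calls ranged from 530 at chr4:118547386 to 1054 at chr4:118547342, while the first CG of the window had 39 to 100 calls. Methylation of the 5 members lay between 80.4% and 94.0% in every library.

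The members were concentrated in few places. Joined where neighbours lay at most 10 kb apart, they formed 100 clusters on 18 of the 19 autosomes, with none on chromosome 19. The 12 clusters with at least 10 members held 910 of the 1143 members (79.6%), 50 clusters had 2 to 9 members and 38 were single CpGs. A gene overlapped 47 clusters, and a protein-coding gene 31. Clusters within 1 Mb of the first listed CpG of a chromosome, the end nearest the centromere in the mouse, numbered 7 and held 164 members (14.4%), where 0.642% of all autosomal CpGs listed in all 9 libraries lie.

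The largest cluster, chr17:39843026-39848789, held 534 members, or 46.7% of all, among 590 listed CpGs within 5765 bp. It overlaps Rn18s-rs5 (chr17:39846354-39848202), a sequence related to 18S ribosomal RNA, and AY036118. The deepest cluster was chr2:98662264-98667325, without a gene, where 48 members averaged 49362 calls. Within it chr2:98667149 had 226132 to 357730 calls per library, and it read 93.1% to 93.8% methylated.

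The other clusters with over 30 members were chr11:3172578-3196681 at Sfi1 with 71, chr9:3000441-3030144 without a gene with 51, chr16:11143994-11144239 in Zc3h7a with 42, the Gm40237 cluster chr4:118547254-118548709 with 34, chr16:57391399-57391657 in Cmss1 and Filip1l with 33, and chr3:5860365-5860764 without a gene with 31. Next in size came chr6:3200774-3201557 without a gene with 25, chr10:58224415-58232515 at Duxf3 with 18, chr12:78350907-78351140 in Gphn with 12 and chr9:123461979-123462110 in Lars2 with 11. Some fill every listed CpG of a short window: all 42 in Zc3h7a lie within 247 bp, and all 33 in Cmss1 and Filip1l within 260 bp. Others are scattered, such as the Duxf3 cluster, where 18 of 94 listed CpGs over 8102 bp passed the rule.

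A list of genes known to be multi-copy, collapsed or repeat-derived in the mouse assembly was set beside these places. Of its 96 genes 84 lie on autosomes, and 4 overlap a cluster: Rn18s-rs5, Sfi1, Pisd-ps1 and Duxf3. Most of the 96 belong to the single n-R5s family, so the share is not one of multi-copy genes in general. Mitochondrial pseudogenes, also meant for the list, were not searched. Sfi1 encodes a centrin-binding protein of the spindle poles, Pisd-ps1 is a pseudogene of a phosphatidylserine decarboxylase, and Duxf3 belongs to the tandem Dux array of double-homeobox genes. Sfi1 and Pisd-ps1 add a cluster of 7 members, chr11:3127214-3142656, and Sfi1 a pair at chr11:3158627-3158645, which makes 14 clusters described by name.

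Separations between members recurred in some clusters. In the chr2:98662264 cluster the separations of 234, 251 and 485 bp each occurred 8 times, and 234 bp is the unit length of the mouse major satellite. Among the 25 clusters with at least 6 members, 2 had at least 90% of their members fall on CpGs of another cluster under 1 common shift. The 7 members of chr9:35305300-35305582 all fell on CpGs of the chr2:98662264 cluster, and also on CpGs of chr9:3000441-3030144 in the opposite orientation. Of the 25 members of chr6:3200774-3201557, 23 (92.0%) fell on CpGs at chr17:39846685-39847468, inside Rn18s-rs5. The highest share in any other cluster was 83.3%, or 5 of 6 members. How large a share unrelated clusters reach was not computed, so shares under 90% are not read as a lack of shared sequence.

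Calls were often on 1 strand. At 275 members (24.1%) at least 95% of calls lay on a single strand, 140 on the forward and 135 on the reverse. In the largest cluster this held for 36 of 534, and outside it for 239 of 609 (39.2%). CpGs whose lowest library had at least 100 calls but fewer than the rule asks showed the same in 1271 of 3200 (39.7%), so the share outside the largest cluster was close to that of less deep neighbours. By cluster, 69 of the 88 with at most 9 members were one-stranded, against 1 of the 12 larger ones. That 1 was the Gm40237 cluster, with all 34 members on the forward strand.

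Coverage per CpG, the stand-in for copy number, was given as calls per CpG per 1000000 autosomal calls (CPM per CpG). At the Rn18s-rs5 cluster it was 8.99, 10.8, 9.31, 9.54 and 9.62 (Control 2, 3, 4, 5, 8) against 8.78, 9.31, 8.53 and 9.05 (Susceptible 2, 3, 6, 7). Control 3 was highest, and the groups overlapped. Against the median autosomal CpG of the same library these values were 104-fold to 134-fold. In the same unit the Sfi1 cluster of 71 members had 2.77 to 3.38 and the Duxf3 cluster 2.15 to 2.29, or 24.5-fold to 27.6-fold the median CpG. The Duxf3 values were the closest together, relative to their level, among the 14 clusters, and the group means were 2.23 in Control and 2.22 in Susceptible libraries.

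**Figure D1:**
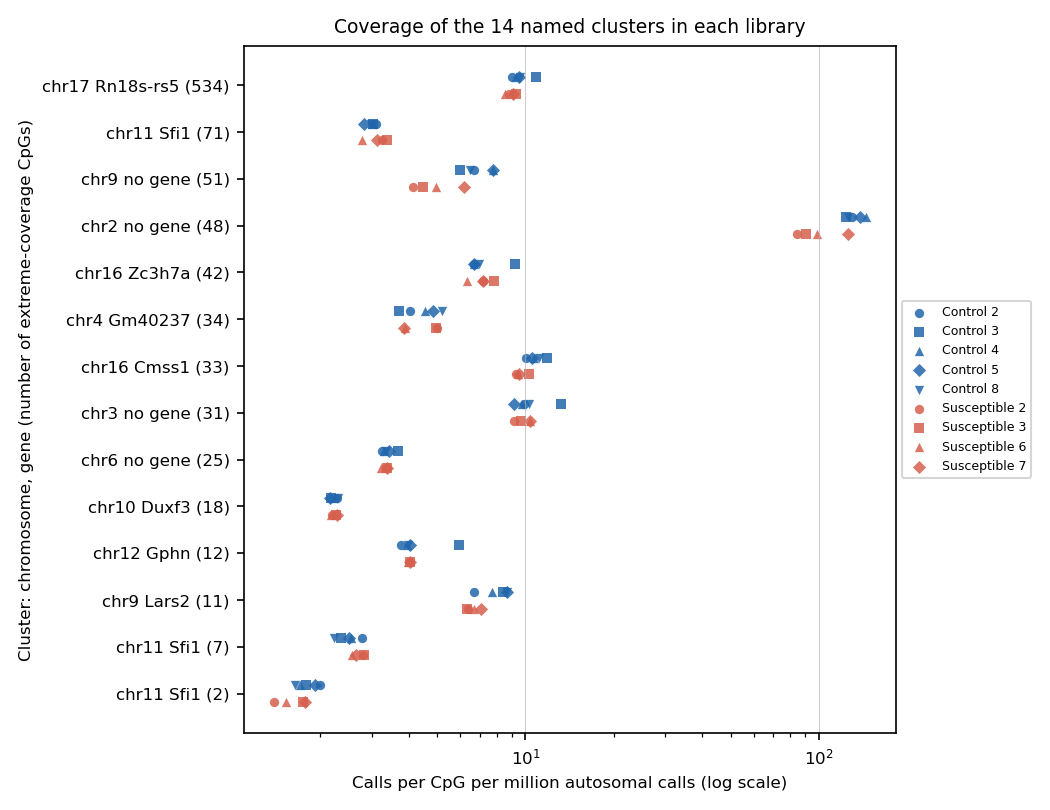
CPM per CpG (log axis) in the 14 clusters described by name, 1 symbol per library, Control in blue and Susceptible in red, with the number of extreme-coverage CpGs in brackets. The chromosome 2 cluster without a gene lies between 84.1 and 145, and the other 13 lie between 1.39 and 13.2.

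Over the 100 clusters the ratio of the Susceptible to the Control mean CPM per CpG ran from 0.655 to 1.498 with a median of 0.986, with 9 clusters under 0.8 and 5 at 1.29 or above. The 9 include the chr2:98662264 and chr9:3000441 clusters and the one at chr9:35305300 that shares their spacing. At chr2:98662264-98667325 the values were 129, 124, 145, 138 and 126 (Control 2, 3, 4, 5, 8) against 84.1, 90.6, 98.3 and 125 (Susceptible 2, 3, 6, 7), a ratio of 0.752. Susceptible 7 lay within the Control range, and the other 3 Susceptible libraries lay below it. At chr9:3000441-3030144 the Control libraries had 5.98 to 7.76 and the Susceptible libraries 4.15 to 6.17, a ratio of 0.714. At chr9:35305300-35305582 the values did not overlap, with 43.8 to 56.4 in Control and 32.1 to 43.6 in Susceptible libraries. Set against the median autosomal CpG of each library instead, the groups overlapped there, with 516-fold in Control 2 and 530-fold in Susceptible 7. Over the 100 clusters the groups did not overlap in 5 by CPM per CpG, 5 lower and 0 higher in Susceptible libraries, and in 4 against the median CpG, 3 lower and 1 higher. Of all autosomal CpGs listed in all 9, 1.92% did not overlap by CPM (1.03% lower and 0.884% higher) and 1.92% against the median CpG (1.06% lower and 0.86% higher). Among the members it was 85 (7.44%) and 73 (6.39%), of which 83 and 69 were lower; since coverage chose the members, nothing is read from these counts. The clusters chr12:3109911-3110026 and chr14:19416969-19417920 had ratios of 0.680 and 0.655, with overlap. By the same measure the ratio was 0.924 at Rn18s-rs5, 1.05 at the Sfi1 cluster of 71 members and 0.999 at Duxf3.

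Added over all members, calls made up 1.41%, 1.52%, 1.52%, 1.5% and 1.43% of autosomal calls (Control 2, 3, 4, 5, 8) against 1.15%, 1.22%, 1.20% and 1.39% (Susceptible 2, 3, 6, 7). That is 1.48% ± 0.0523 (SD, n = 5) against 1.24% ± 0.103 (SD, n = 4), and every Susceptible library lay below every Control library. The cluster with the most calls, on chromosome 2, supplied 35.1% to 45.7% of the members' calls. The median CPM per member, which that cluster does not set, was 5.75 ± 0.426 for the Control group against 5.44 ± 0.310 for the Susceptible group, with overlap. Total depth also separated the groups, and its part in these shares was not tested.

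Methylation split the members into classes unlike those of the genome. A mean level of 10 to 50% was found at 723 members (63.3%), 50 to 80% at 103 (9.01%), at least 80% at 303 (26.5%) and under 10% at 14. Of the other autosomal CpGs listed in all 9, 5.86% read 10 to 50% and 66.7% at least 80%. The intermediate class was mostly the Rn18s-rs5 cluster, where 521 of 534 members read 10 to 50%, and outside it 202 of 609 did. Each CpG counted equally, the members averaged 52.3% ± 3.68 in Control and 49.5% ± 1.41 in Susceptible libraries. The other autosomal CpGs averaged 75.1% ± 0.384 and 75.1% ± 1.27 (SD, n = 5 and n = 4).

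**Figure D2:**
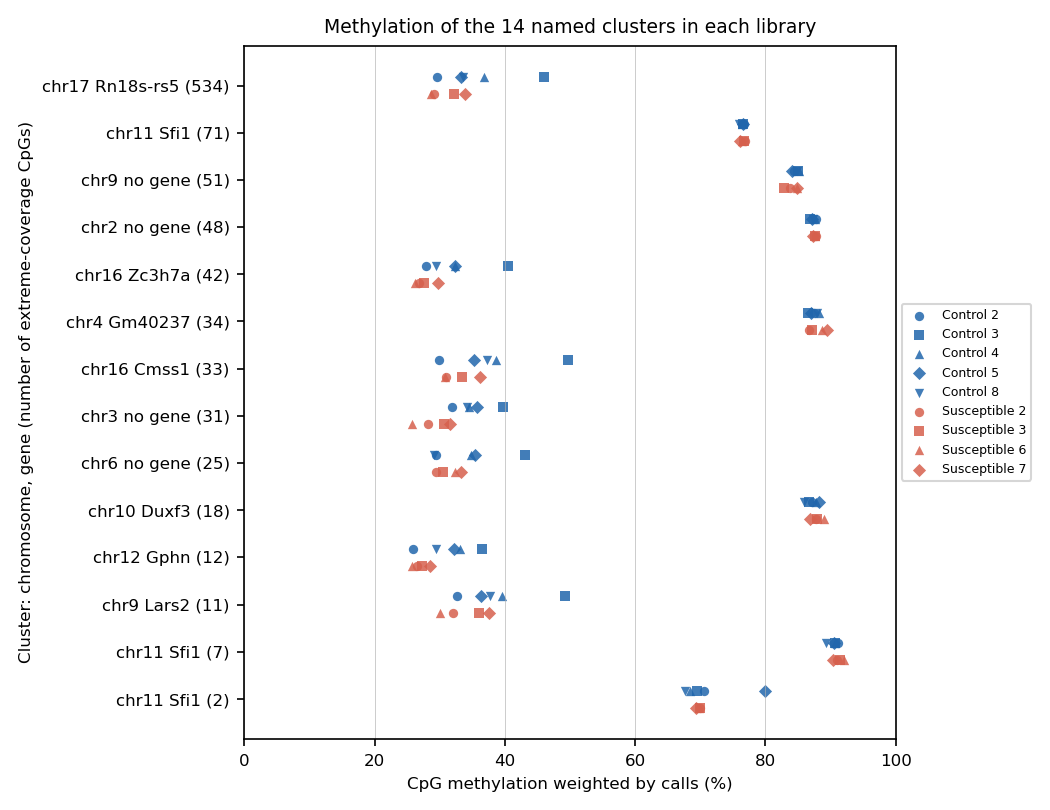
Methylation weighted by calls (%) in the 14 clusters described by name, 1 symbol per library, Control in blue and Susceptible in red. The Rn18s-rs5, Zc3h7a, Cmss1, chromosome 3, chromosome 6, Gphn and Lars2 clusters lie between 25.7% and 49.6%, and the Sfi1, Gm40237, Duxf3 and remaining gene-free clusters lie above 67%.

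The Rn18s-rs5 cluster read 29.5%, 46.0%, 36.8%, 33.2% and 33.5% (Control 2, 3, 4, 5, 8) against 29.1%, 32.2%, 28.7% and 33.9% (Susceptible 2, 3, 6, 7). Control 3 was 9.18 points above the next library, and without it the 2 groups cover much the same range. The means were 35.8% ± 6.25 and 30.98% ± 2.51, a difference of -4.83 points with overlapping groups, and -2.28 points without Control 3. By CpG, 525 of the 534 members had a lower Susceptible mean, and 432 of 534 did without Control 3, but these CpGs share reads and libraries and are not replicates. Among the other autosomal CpGs listed in all 9, 51.4% had a lower Susceptible mean.

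**Figure D3:**
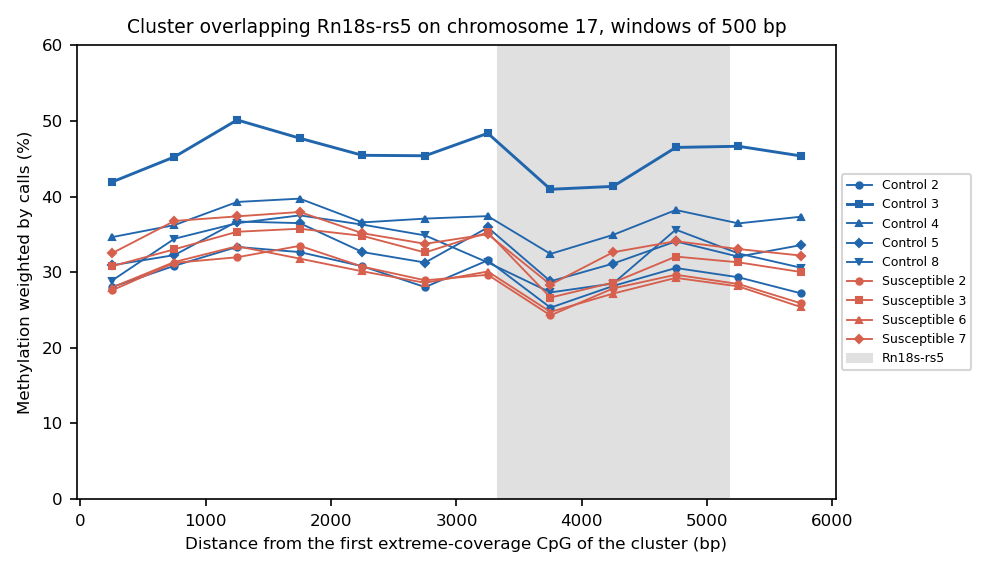
Methylation weighted by calls (%) in windows of 500 bp along the chromosome 17 cluster, against the distance from its first extreme-coverage CpG (bp), 1 line per library and Rn18s-rs5 shaded. Control 3 lies above the other 8 libraries in every window. All libraries dip in the window of 3500 to 3999 bp, inside Rn18s-rs5, where Control 3 reads 41.0% and the lowest library 24.3%.

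Along the cluster, the window of 1000 to 1499 bp from the first member averaged 39.2% in Control and 34.5% in Susceptible libraries. The window of 3500 to 3999 bp, inside Rn18s-rs5, averaged 31.0% and 26.0%. The differences of -4.66 and -4.95 points in these windows became -1.92 and -2.45 without Control 3, and -6.12 and -6.37 without Control 2. The 120 members inside Rn18s-rs5 averaged 33.7% ± 5.78 and 29.1% ± 2.14, the 337 before it 36.6% ± 6.06 and 32.6% ± 2.51, and the 77 after it 35.8% ± 6.96 and 29.8% ± 2.95 (SD, n = 5 and n = 4). The groups overlapped in all 3 stretches, and without Control 3 the differences of -4.63, -4.00 and -5.98 points became -2.33, -1.5 and -3.18. Forward-strand calls gave 34.3% and 31.0% and reverse-strand calls 36.7% and 30.9%, so the group difference was -3.30 points on the forward and -5.81 points on the reverse strand. Without Control 3 these were -0.706 and -3.32 points.

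At the 23 spacing-matched CpGs, chr6:3200774-3201557 read 36.3% ± 6.48 in Control and 33.2% ± 2.16 in Susceptible libraries, and chr17:39846685-39847468 read 33.5% ± 8.22 and 26.7% ± 4.73, each CpG counted equally. The difference on chromosome 6 was -3.13 points and -0.445 without Control 3, and that on chromosome 17 was -6.80 points and -4.44 without Control 4. Of the 23, 8 are members on the chromosome 17 side. Single libraries read 30.6% to 47.1% on chromosome 6, highest in Control 3. On chromosome 17 they read 22.5% to 42.9%, highest in Control 4, with Control 3 at 39.2%. CPM per CpG was 3.24 and 3.17 on chromosome 6 against 1.62 and 1.55 on chromosome 17 for Control and Susceptible libraries.

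Several short clusters outside chromosome 17 read at the same intermediate level. The cluster in Zc3h7a, which encodes a CCCH zinc finger protein, read 28.0%, 40.5%, 32.3%, 32.4% and 29.4% (Control 2, 3, 4, 5, 8) against 26.9%, 27.7%, 26.2% and 29.7% (Susceptible 2, 3, 6, 7). The cluster shared by Cmss1 and Filip1l averaged 38.1% ± 7.26 and 32.8% ± 2.50, that in Lars2, which encodes the mitochondrial leucyl-tRNA synthetase, 39.1% ± 6.21 and 34.0% ± 3.49, and that in Gphn, which encodes gephyrin, the scaffold of inhibitory synapses, 31.5% ± 3.99 and 27.0% ± 1.15 (SD, n = 5 and n = 4). In all 4 Control 3 was the highest library and the groups overlapped. Leaving out 1 library at a time, the differences were -6.05 to -2.91 points in Zc3h7a and -7.35 to -2.40 in Cmss1 and Filip1l. They were -6.74 to -2.60 points in Lars2 and -5.89 to -3.23 in Gphn, and all 4 were narrowest without Control 3. Smaller clusters of this level lie in Camk1d, a calmodulin-dependent kinase gene, with 5 members (chr2:5379314-5379329), and in Cdk8, which encodes the kinase of Mediator, with 7 (chr5:146261012-146261065).

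Of the clusters with at least 4 members, 12 had a mean level of 20 to 50%, and Control 3 was the highest library in 12 of 12. In the 19 such clusters with a mean level of 50% or more it was highest in 4. The range between the highest and the lowest library had a median of 17.1 points in the 12 and of 2.04 points in the 19. In the 12 clusters the Susceptible mean was lower in every one, with differences from -6.20 to -0.823 points. Without Control 3 it was lower in 11 of 12, with a median difference of -2.50 points in place of -4.87. As Control 3 was highest in all 12, leaving it out could only move the differences this way. In the 19 clusters the Susceptible mean was lower in 9, with a median difference of 0.0643 points. The 12 clusters differ from the 19 in level, and the count of lower clusters was not tested, since the clusters share the same libraries. The sequences of the 12 were not compared with each other or with ribosomal DNA. Whether they are separate sequences or copies of the same repeat was therefore not tested.

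**Figure D4:**
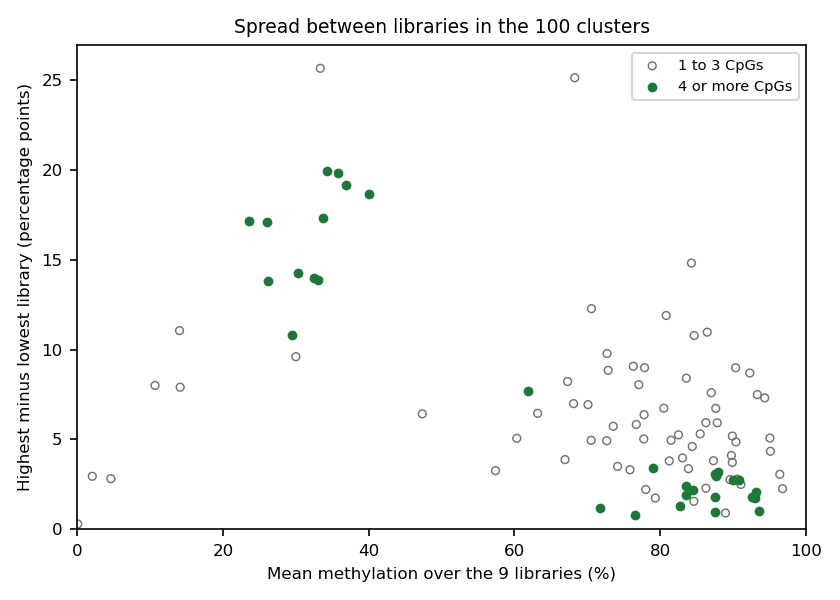
Range between the highest and the lowest of the 9 libraries (percentage points) against mean methylation (%) for each of the 100 clusters, filled where a cluster has 4 or more extreme-coverage CpGs. Filled clusters with a mean of 20 to 50% have ranges of 10.8 to 19.97 points, and those with a mean of 50% or more have ranges of 0.804 to 7.71 points.

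Calls followed the same library at some of these places. Control 3 had a CPM per CpG of 5.93 at the Gphn cluster where the other 8 libraries had 3.76 to 4.05, and 9.21 at the Zc3h7a cluster where they had 6.32 to 7.80. At Lars2 it had 8.41 within a Control range of 6.66 to 8.65, and at the Camk1d cluster 1.51 within 1.39 to 2.58. The part of coverage in the Control 3 levels was not tested.

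The chr3:5860365-5860764 cluster was the one of the 14 in which no Susceptible library reached a Control library. Over all 100 clusters the groups did not overlap in 3 (3.0%), all lower in Susceptible libraries, where 1.78% of all CpGs and 1.59% of all tiles did not overlap. No gene overlaps it; Gm8797, a pseudogene, lies 109 kb before and Gm46796, a long noncoding RNA gene, 246 kb after. It read 31.9%, 39.7%, 34.5%, 35.7% and 34.2% (Control 2, 3, 4, 5, 8) against 28.2%, 30.7%, 25.7% and 31.6% (Susceptible 2, 3, 6, 7). The lowest Control library stood 0.356 points above the highest Susceptible one. The means were 35.2% ± 2.86 and 29.0% ± 2.63, a difference of -6.20 points, and -5.08 points without Control 3.

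**Figure D5:**
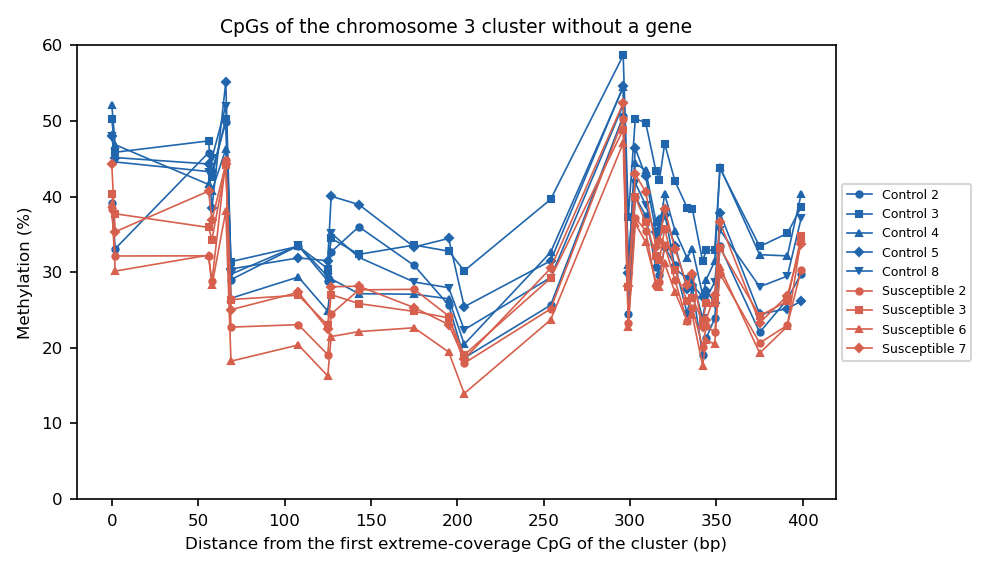
Methylation (%) at each of the 31 CpGs of the chromosome 3 cluster against the distance from its first CpG (bp), 1 line per library, Control in blue and Susceptible in red. The Susceptible mean is lower at 31 of 31 CpGs, with differences from -10.01 to -1.09 points. The CpGs share reads and libraries and are not replicates.

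All 31 listed CpGs of this window are members. At 31 of 31 the Susceptible mean was lower, also without Control 3, and at 30 of 31 without Control 4. These CpGs share reads and libraries and are not replicates. Among the other autosomal CpGs listed in all 9, 51.4% had a lower Susceptible mean. The Control mean ran from 23.4% at 204 bp to 54.1% at 296 bp from the first CpG. The group difference was widest at 58 bp, with -10.01 points, and narrowest at 399 bp, with -1.09 points, where it was 0.39 points without Control 4. CPM per CpG was 9.17 to 13.2 in Control libraries, highest in Control 3, and 9.12 to 10.4 in Susceptible libraries.

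The highly methylated clusters differed little between libraries. The Sfi1 cluster of 71 members read between 76.0% and 76.8% in all 9, with means of 76.4% ± 0.260 and 76.5% ± 0.337. The chr2:98662264 cluster read 86.8% to 87.8%, the Gm40237 cluster 86.5% to 89.5%, the Duxf3 cluster 85.9% to 88.9% and the chr9:3000441 cluster 82.9% to 85.1%. In these 5 clusters the groups overlapped and the means differed by less than 1 point. The cluster of 7 at Sfi1 and Pisd-ps1 read 90.5% ± 0.685 and 91.2% ± 0.726. At the Sfi1 pair Control 5 read 79.9% and the other 8 libraries 67.7% to 70.5%.

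A few members had almost all calls read as T. Whether these calls come from unmethylated cytosines or from copies with T in their sequence was not tested. Outside the Rn18s-rs5 cluster 13 members averaged under 10%, of which 6 lie in the Sfi1 cluster, among them chr11:3193310 with 0.176% to 0.825% over 1709 to 3771 calls. The lowest was chr8:21608046 with 0% to 0.284% over 704 to 1089 calls. A single CpG in Grid1, a glutamate receptor subunit gene of the delta type, read 0.533% to 3.47% (chr14:35277613). Both groups held these low values.

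Tested CpG by CpG over all 5610451 autosomal CpGs that could be tested, no member passed an adjusted p of 0.05 in the quasi-binomial test, where the share called among all CpGs was 0.0%. An unadjusted p under 0.05 was reached by 153 of 1143 members (13.4%) against 8.12% of all CpGs tested; 149 of these were lower in Susceptible libraries (13.0%, against 5.46%) and 4 higher (0.35%, against 2.66%). Without Control 3 the count was 104 (9.1%) against 9.35% of all CpGs, so the members' share was then near the background; 101 were lower (8.84%, against 6.16%). Without Control 2 the count rose to 318 (27.8%) against 10.2%. The share was below the background without Control 4 (8.14% against 9.34%), Susceptible 2 (4.81% against 6.99%) or Susceptible 6 (5.42% against 6.96%). It was also below the background with the replicate block given at the end. A limma-type test on logit levels also called no member and put 103 (9.01%) under an unadjusted 0.05, against 5.21% of all CpGs. The Rn18s-rs5 cluster held 86 of the 153, the chromosome 3 cluster 25 and the Zc3h7a cluster 18. Since neighbouring CpGs share reads, these are far fewer separate observations. In the quasi-binomial test CpGs with a mean of 640 or more calls, most members among them, shared 1 prior fitted on 1247 CpGs. Its scale was 10.3, against 2.47 to 4.53 in the bins of fewer calls. The 13.4% and the 8.12% thus rest on unlike priors and cannot be read apart from this. With 1 common prior for all CpGs the count was 318. Groups that did not overlap were found at 23 members (2.01%) against 1.78% of all CpGs tested, which is near the background. Of those 23, 20 were lower in Susceptible libraries (1.75%, against 1.46%) and 3 higher (0.262%, against 0.325%), and 8 of the 20 lie in the chromosome 3 cluster.

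The 5 members of smallest unadjusted p all lie in that cluster and all missed the threshold. At chr3:5860490 the levels were 28.9%, 30.5%, 24.9%, 31.5% and 29.4% (Control 2, 3, 4, 5, 8) against 19.1%, 23.0%, 16.3% and 22.5% (Susceptible 2, 3, 6, 7). The groups did not overlap, and the difference of -8.81 points had an unadjusted p of 0.000621 in the quasi-binomial model fitted across all CpGs (adjusted p = 0.611). The others were chr3:5860423, chr3:5860473, chr3:5860421 and chr3:5860492, with differences of -10.01, -7.92, -9.22 and -9.04 points, each with the same adjusted p and without overlap between groups. At chr3:5860490 the calls ranged from 3121 to 7368 per library.

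Tiles of 1 kb, which add up the CpGs within each tile, gave no call either. Longer clusters, such as that at Rn18s-rs5 with 5765 bp, span several tiles, so the tiles are not separate observations. Of 704718 tiles tested, 117 hold a member, 1101 of the 1143 members in all. None of the 117 passed an adjusted p of 0.05, and the share called among all tiles was 0.0%. An unadjusted p under 0.05 was reached by 15 of the 117 (12.8%) against 4.69% of all tiles, with 11 lower in Susceptible libraries (9.4%, against 2.33%) and 4 higher (3.42%, against 2.36%). Without Control 3 it was 13 (11.1%) against 5.69%, and over 12 alternatives the count ranged from 0 to 25, against 3.02% to 5.86% of all tiles. The limma-type test on logit levels called none and put 0 of the 117 under an unadjusted 0.05, against 3.8% of all tiles. In the quasi-binomial test all tiles with a mean of 640 or more calls shared 1 prior, fitted on 47119 tiles. Tiles with a member had a median of 5692 calls per library. Their p-values thus rest in part on the spread of other tiles, and the 12.8% cannot be read apart from this. Groups did not overlap in 3 of the 117 (2.56%, against 1.59%), 2 lower (1.71%, against 0.981%) and 1 higher (0.855%, against 0.609%).

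The 5 tiles of smallest unadjusted p missed the threshold, with an adjusted p of 0.981 each in the quasi-binomial model over all tiles. They start at chr3:5860001, chr12:78350001 in Gphn, chr2:5379001 in Camk1d, chr5:146261001 in Cdk8 and chr16:11144001 in Zc3h7a, and all 5 belong to clusters of intermediate level. The chromosome 3 tile read 35.4% ± 2.85 in Control and 29.2% ± 2.64 in Susceptible libraries, without overlap. The Camk1d tile read 31.3%, 39.7%, 34.0%, 30.6% and 34.5% (Control 2, 3, 4, 5, 8) against 28.8%, 30.3%, 27.4% and 28.1% (Susceptible 2, 3, 6, 7), so the groups did not overlap there, by 0.249 points. In the Gphn, Cdk8 and Zc3h7a tiles the groups overlapped, with differences of -5.58, -6.58 and -4.95 points and Control 3 highest. Without Control 3 these were -4.39, -4.21 and -2.96 points.

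Pooled over all members by calls, methylation was 62.2%, 66.3%, 66.2%, 63.9% and 62.6% (Control 2, 3, 4, 5, 8) against 57.1%, 58.5%, 58.9% and 63.3% (Susceptible 2, 3, 6, 7). Susceptible 7 lay within the Control range, and the other 3 lay below it. The means were 64.3% ± 1.93 and 59.5% ± 2.70, a difference of -4.79 points. This value mixes clusters near 30% with clusters near 87%, and the highly methylated chromosome 2 cluster gave 43.1% of the members' calls in Control and 38.2% in Susceptible libraries. Without that cluster the means were 46.7% ± 4.21 and 42.1% ± 2.14, and with each CpG counted equally the difference was -2.79 points, in both cases with overlapping groups. Without Control 3 the difference outside that cluster went from -4.55 to -2.93 points, and that with each CpG counted equally to -1.28 points.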

How the data were processed

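Each library has 1 deposited file listing cytosines of CpGs by strand. Per the file headers it gives coverage, a whole-number count of calls, deposited without visible scaling, and the percent of C and of T among them; these deposited percentages sum to 100 at every cytosine. Every listed cytosine has at least 10 calls. The submitters' processing notes name Bismark, Bowtie, Picard and build mm10, with no role, order or version; removal of repeated reads is not given in the sources used here.

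Methylated calls were recovered as coverage times percent over 100, within rounding at the 35 members with over 10000 calls on a strand. The base of the forward strand and the base before that of the reverse strand were added. In Control 5 and Control 8, 4 and 8 repeated entries were reduced to the first, none at a member. Unplaced scaffolds were left out. Coordinates count from 1. Gene names, bounds and promoter windows came from RefSeq for GRCm38.p6, which carries the coordinates of mm10; exons were not used here.

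CPM is calls per 1000000 listed autosomal calls of a library. CpGs, and 1-kb tiles with at least 3 CpGs, listed in all 9 libraries were tested with a quasi-binomial model on methylated and unmethylated counts; the Pearson dispersion was moderated with limma's squeezeVar formulas within bins of mean calls and kept at 1 or more, and p-values of the F test were adjusted by Benjamini-Hochberg over all features. CpGs with all calls alike in every library were not testable. The test was run on simulated CpGs drawn independently with the same dispersion setting, unlike the members here, so its calibration at the members is not shown. Python 3.11.15 and scipy 1.17.1 were used. Members, lists and tests were chosen with earlier results of these data known. Named were the 12 clusters with most members, clusters overlapping a gene of the fixed list, and, as no feature passed, the 5 CpGs and 5 tiles of smallest unadjusted p. Camk1d, Cdk8, Grid1 and the clusters at chr9:35305300, chr12:3109911 and chr14:19416969 were named after their values were seen. Alternatives were other call minimums, joining distances, weightings, strands, denominators, moderation, a logit test, larger tiles, a replicate block and leaving out each library.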

Additional observations from a re-analysis of the deposited data

Results flagged for a closer look

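In 54 sets of methylation levels, each the 4 or 5 libraries of 1 group, the highest or lowest library was compared with the rest by its gap relative to the group's range (Dixon's criterion at 95%); about 1 set in 20 passes it by chance, and 1 did here. At the Sfi1 pair of CpGs (chr11:3158627-3158645) Control 5 read 79.9% methylated, where the other Control libraries read 67.7% to 70.5%. Control 3 was flagged in 0 of the 54 sets. With 5 libraries the criterion asks for a gap over 0.71 of the range, and several sets share reads. The lack of a flag therefore does not show that Control 3 is like the other libraries. Coverage was left out of this comparison because it chose the members.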

How the results depend on the processing

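No member and no tile with a member passed the threshold under any of the 14 alternatives run for the CpG test and the 13 for the tile test; the smallest adjusted p of a member ranged from 0.475 to 0.939, and of a tile from 0.843 to 1.0. Members with an unadjusted p under 0.05 ranged from 20 to 318 over 13 of those alternatives, against 5.21% to 10.2% of all CpGs: 318 with 1 common prior and also without Control 2, 104 without Control 3, 93 without Control 4, 55 without Susceptible 2 and 62 without Susceptible 6. Tiles with a member at that level numbered 25 with 1 common prior and also without Control 2, 9 without Susceptible 2, 10 without Susceptible 6 and 0 in the limma-type test, against 15. A minimum of 1000 calls left 754 members, and with calls at CpGs listed in all 9 as denominator the members had a CPM of 25489, with the groups still apart. The pooled difference in methylation was negative in all 16 alternatives, from -6.09 to -4.01 points when 1 library was left out. Of the 14 named clusters 8 kept the sign of their difference in every alternative, 7 of them negative (Rn18s-rs5, Zc3h7a, Cmss1, Lars2, Gphn, chromosome 3 and chromosome 6) and 1 positive (the cluster of 7 at Sfi1 and Pisd-ps1); the other 6 had differences within 1.5 points of 0, and the Sfi1 pair went from -1.43 to 0.751 points without Control 5. Without Control 3 the difference was -2.28 points at Rn18s-rs5, -2.40 at Cmss1, -2.60 at Lars2, -2.91 at Zc3h7a and -0.773 at chromosome 6; leaving out libraries for the counts of lower CpGs and clusters, the strands, stretches and matched CpGs was added after seeing the data. Listed calls of at least 10 and repeated reads of 1 molecule limit what depth can show here.

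Control and Susceptible libraries share the numbers 2 and 3, and nothing in the labels ties equal numbers together. The deviations of same-numbered libraries from their group means correlated at 0.557 and 0.293 over the members. Pairs with different numbers were not computed, so these values cannot tell whether equal numbers share a block. With the replicate block over these numbers no member and no tile was called, 20 members (1.75%) had an unadjusted p under 0.05 against 5.43% of all CpGs, 0 tiles with a member did against 5.1% of all tiles, and the pooled difference was -6.50 points.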
